A study of Mus musculus with 8 samples.

Results

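The effect of losing Blimp1 was compared with the effect of losing XBP1 in sorted plasma cells of C57BL/6 mouse bone marrow. For every gene, the log2 fold change of Blimp1 knockout libraries (Blimp1KO) over wild type (WT) of batch 1 was taken, and the log2 fold change of Xbp1 knockout libraries (Xbp1KO) over WT of batch 2 was subtracted from it. The comparison uses all 8 of the 8 RNA-seq libraries: WT replicates 1 and 2 and Blimp1KO replicates 1 and 2 in batch 1, and WT replicates 3 and 4 and Xbp1KO replicates 1 and 2 in batch 2. Every cell was sorted as positive for the Blimp1-GFP reporter and for CD138, so the WT animals also carried the reporter. The series text calls the replicates biological. The Cre driver, any inducing treatment, the exons deleted and the age of the mice are not given in the sources used here. No single batch holds both knockouts, so the factor lost and the batch cannot be told apart wherever a batch changes how a cell responds to a knockout.

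Blimp1, encoded by Prdm1, is a zinc-finger repressor and activator that shuts off much of the B cell programme as a cell becomes a plasma cell. XBP1 is a basic leucine zipper activator whose messenger is spliced by the endoplasmic reticulum (ER) stress sensor IRE1, and it drives the chaperones and transport machinery of the secretory pathway. Both factors are needed for high antibody output, and Blimp1 lies upstream of Xbp1 in plasma cell formation.

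The libraries held 44.0 to 145 M counted reads, of which immunoglobulin genes took 25.2 to 75.7%. The plasma cell surface marker Sdc1, the gene for CD138, lay between 309 and 639 CPM in every library (CPM, counts relative to scaled library size). The libraries labelled knockout still held reads of the targeted genes. Prdm1 had 243 and 176 CPM in Blimp1KO against 301 and 306 in its WT. Xbp1 had 1302 and 1105 CPM in Xbp1KO against 2129 and 2203 in its WT. Counts over a whole gene do not test a deletion of unstated exons. The WT libraries of the 2 batches differed in 423 of 15073 genes tested (2.81%, edgeR quasi-likelihood test, Benjamini-Hochberg adjusted), and each knockout was set against the WT of its own batch. Genes named below that differed include Tsc22d1, Gsto1, Gas5 and BC061194. Their log2 fold changes of WT of batch 2 over batch 1 were -1.87, -1.47, 1.24 and 1.06.

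On build mm10, Nucb2 lies at chr7:116504352-116540588, Pigr at chr1:130826684-130852249, Hid1 at chr11:115347705-115367756, Tsc22d1 at chr14:76414961-76507765 and Bcl2l1 at chr2:152758732-152833803.

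Promoters of 5 genes are shown because they hold a recognition sequence of a pathway that the comparison turns on, in genes of different response. They run from 250 bases upstream to the base before the annotated start, 5′ to 3′ on the gene's strand, from RefSeq on build GRCm38.p6. Capitals mark the match. In Dnajc3, an ER co-chaperone gene, and Ero1lb, an ER oxidase gene, it is the ER stress response element (CCAAT and CCACG on either side of 9 free bases). In Kdelr3, an ER retention receptor gene, it is the core of the unfolded protein response element (TGACGTGG). In Alpl, an alkaline phosphatase gene, it is the core of the Blimp1 site (AGNGAAAG). In Chac1, a glutathione-degrading enzyme gene of the ATF4 stress pathway, it is the amino acid response element (TGATGNAA). A match may lie on either strand, and Alpl has a match upstream of another annotated start as well. Dnajc3, Ero1lb and Kdelr3 were lower in Xbp1KO, at -2.78, -2.29 and -1.97. Promoters not shown go the other way: Hsp90b1 also holds the ER stress response element and Vegfa the unfolded protein response element core. Both were higher in Xbp1KO, at 1.62 and 2.07.
Dnajc3, chr14:118937682-118937931, plus strand: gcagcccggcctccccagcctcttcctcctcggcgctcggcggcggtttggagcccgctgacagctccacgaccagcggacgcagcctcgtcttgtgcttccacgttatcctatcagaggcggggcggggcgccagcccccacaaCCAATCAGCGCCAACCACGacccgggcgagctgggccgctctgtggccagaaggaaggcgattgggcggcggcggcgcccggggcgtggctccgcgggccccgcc
Ero1lb, chr13:12565633-12565882, plus strand: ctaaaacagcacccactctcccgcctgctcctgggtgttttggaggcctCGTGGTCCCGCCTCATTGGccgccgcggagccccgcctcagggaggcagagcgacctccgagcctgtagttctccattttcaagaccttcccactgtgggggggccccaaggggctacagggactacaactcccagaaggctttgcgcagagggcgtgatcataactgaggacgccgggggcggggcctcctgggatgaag
Kdelr3, chr15:79516158-79516407, plus strand: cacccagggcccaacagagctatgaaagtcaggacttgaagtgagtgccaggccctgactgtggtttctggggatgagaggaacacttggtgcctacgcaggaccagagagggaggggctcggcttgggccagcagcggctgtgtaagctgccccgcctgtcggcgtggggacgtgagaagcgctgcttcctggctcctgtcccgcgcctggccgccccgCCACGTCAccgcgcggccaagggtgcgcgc
Alpl, chr4:137796385-137796634, minus strand: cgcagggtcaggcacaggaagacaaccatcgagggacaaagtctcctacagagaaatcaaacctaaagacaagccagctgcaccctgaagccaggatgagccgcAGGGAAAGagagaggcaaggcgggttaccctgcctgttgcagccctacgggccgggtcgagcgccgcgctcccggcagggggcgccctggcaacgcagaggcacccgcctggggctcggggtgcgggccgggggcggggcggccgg
Chac1, chr2:119350992-119351241, plus strand: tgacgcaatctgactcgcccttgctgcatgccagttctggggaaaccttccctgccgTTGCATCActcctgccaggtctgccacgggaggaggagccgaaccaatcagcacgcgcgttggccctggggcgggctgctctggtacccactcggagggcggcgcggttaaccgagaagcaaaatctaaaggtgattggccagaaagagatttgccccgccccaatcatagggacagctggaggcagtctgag

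The difference of effects passed an adjusted p of 0.05 for 253 of 15073 genes tested (1.68%). The Blimp1KO effect lay above the Xbp1KO effect in 176 of them (1.17%) and below it in 77 (0.511%). Across all genes tested the 2 effects had the same sign in 56.1% of genes. Their correlation across genes was weak, with a Pearson's r of 0.11 and a Spearman coefficient of 0.14. Genes are not independent replicates, and the comparisons share no library. Among the 763 genes lower in Xbp1KO, 78.1% had a lower estimate in Blimp1KO as well, and among the 397 genes higher in Xbp1KO, 53.1% had a higher one. The count of 253 depended on single libraries. Leaving out a WT library gave 9 calls for replicate 1, 3 for replicate 2, 32 for replicate 3 and 47 for replicate 4. Leaving out Blimp1KO replicate 1 or 2 gave 598 or 506 calls, and leaving out Xbp1KO replicate 1 or 2 gave 68 or 114. All 253 genes kept their direction in each of these 8 fits. They were selected for a large difference in these same libraries, so the kept direction is not independent evidence. Without both WT replicate 4 and Xbp1KO replicate 2, the libraries of batch 2 with more counts of other marrow cells, 2 genes were called and all 253 again kept their direction. Without scaling factors 93 genes were called above and 141 below, and the median of all genes moved from -0.01 to 0.78 in Blimp1KO and from 0.08 to 1.24 in Xbp1KO. Effects are given relative to the scaled median.

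The 253 genes were sorted by the size of the 2 effects. Opposite effects enlarge the difference and shared ones reduce it, so a call on the difference favours the opposite class. The class sizes therefore do not measure how common opposite effects are. Opposite directions, with each effect at least 0.5 on the log2 scale, held 103 genes (0.683% of those tested). The XBP1 side, with an Xbp1KO effect of at least 1 and a Blimp1KO effect under 0.5, held 85 genes (0.564%). The Blimp1 side, defined in mirror image, held 24 genes (0.159%). The same direction at unequal size, with both effects at least 0.5, held 33 genes (0.219%), and 8 genes fitted none of these. A further 25 genes were called in each knockout with the same direction and had no called difference (0.166%).

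**Figure D1:**
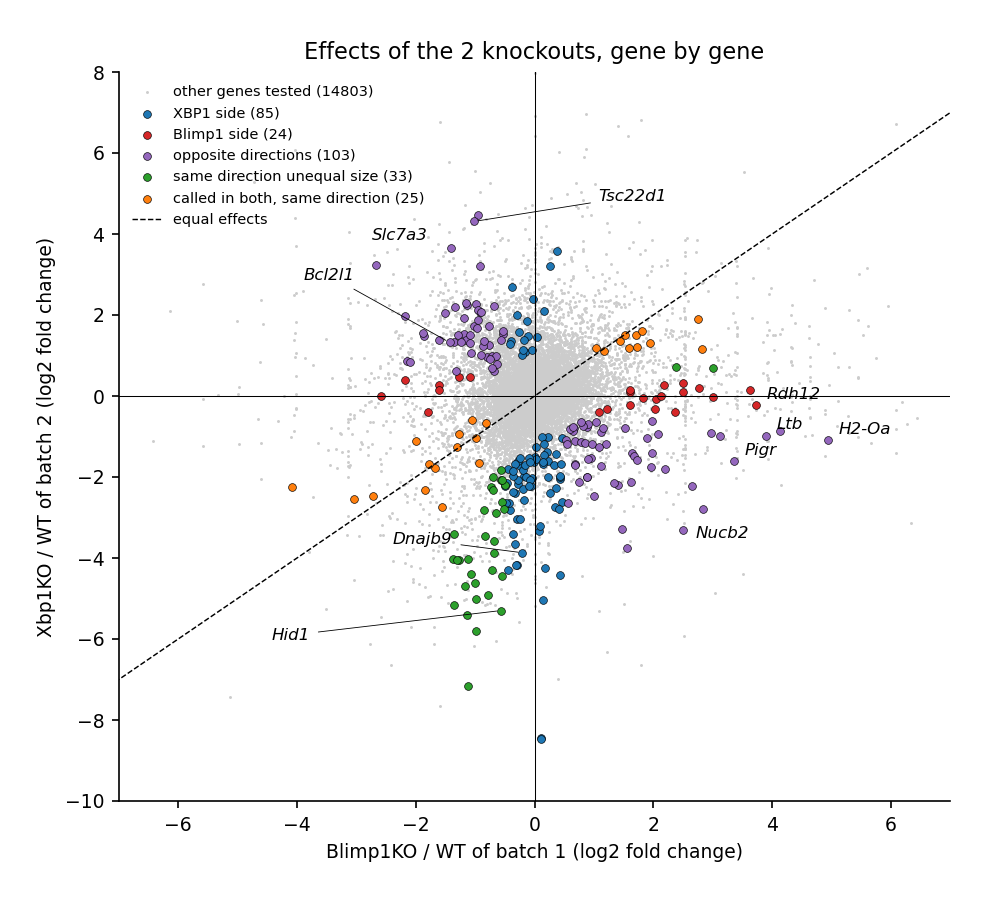
Log2 fold change in Blimp1KO (x axis) against log2 fold change in Xbp1KO (y axis) for each gene tested, with 1 point a gene and 6 genes outside the axes. Coloured points are the classes named in the text, and the dashed line marks equal effects, from which the 25 genes called in both knockouts with the same direction differ by up to 1.84.

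Opposite estimates formed the class with 103 genes, beside 85 on the XBP1 side. Without scaling factors they held 55 and 112. In 54 of the 103 genes the estimate was higher in Blimp1KO and lower in Xbp1KO, and in 49 it was the reverse. Of the 103, 22 were called in Blimp1KO, 81 in Xbp1KO and 11 in both, so most directions are estimates in at least 1 knockout. Nucb2 encodes nucleobindin 2, a calcium-binding protein of the Golgi and secretory vesicles. It stood at 170 and 115 CPM in Blimp1KO against 25.3 and 25.2 in its WT, and at 1.15 and 3.19 CPM in Xbp1KO against 20.5 and 22.2 in its WT. Both Blimp1KO libraries lay above every WT library and both Xbp1KO libraries lay below every WT library. The Nucb2 effects were 2.49 ± 0.45 (SE) in Blimp1KO and -3.31 ± 0.47 in Xbp1KO, of which the first was not called (adjusted p = 0.061), and they differed by 5.80 (95% interval 4.28 to 7.32, adjusted p = 0.014). Pigr encodes the polymeric immunoglobulin receptor that carries IgA and IgM across epithelia. It stood at 45.5 and 19.4 CPM in Blimp1KO against 3.27 and 3.02 in its WT, and at 0.866 and 0.744 CPM in Xbp1KO against 2.96 and 1.93 in its WT. Again neither knockout overlapped with its WT, though the Xbp1KO effect was not called (adjusted p = 0.065), and the difference was 4.97 (3.56 to 6.37, adjusted p = 0.018).

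Other genes with a higher estimate in Blimp1KO and a lower one in Xbp1KO were Ltb, Btla, Faim3, Cd180 and Napsa. Ltb, the lymphotoxin beta chain, rose from 27.2 and 30.8 to 338 and 527 CPM in Blimp1KO and stood at 5.97 and 8.73 CPM in Xbp1KO against 11.8 and 17.1 in its WT. Its Xbp1KO effect was not called (-0.98, adjusted p = 0.11), and its difference was 4.87 (3.79 to 5.96, adjusted p = 0.010). Btla encodes an inhibitory receptor of lymphocytes. It stood at 276 and 242 CPM in Blimp1KO against 102 and 66.9 in its WT, and at 21.6 and 25.6 CPM in Xbp1KO against 105 and 99.2 in its WT. Btla was called in both knockouts, with effects of 1.62 and -2.12 and a difference of 3.73 (2.93 to 4.54, adjusted p = 0.0094). Faim3, the Fc receptor for IgM, had effects of 2.97 and -0.90 (the latter not called, adjusted p = 0.10) and a difference of 3.87 (adjusted p = 0.012). Cd180, a Toll-like receptor relative of B cells, had effects of 1.40 (not called, adjusted p = 0.057) and -2.20 and a difference of 3.61 (adjusted p = 0.010). Napsa, an aspartic peptidase of the endosome and lysosome, had effects of 2.20 and -1.80, both called, and a difference of 4.0 (adjusted p = 0.0061).

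The reverse pattern of estimates, lower in Blimp1KO and higher in Xbp1KO, included Slc7a3, Tsc22d1 and Bcl2l1. Slc7a3 encodes a transporter of cationic amino acids. It stood at 2.12 and 2.98 CPM in Blimp1KO against 6.40 and 7.12 in its WT, and at 65.6 and 63.4 CPM in Xbp1KO against 6.08 and 4.18 in its WT. Its effects were -1.40 ± 0.24 (not called, adjusted p = 0.054) and 3.65 ± 0.25, with a difference of -5.05 (-5.87 to -4.24, adjusted p = 0.0033). Tsc22d1, a leucine zipper protein induced by TGF-beta, stood at 4.06 and 2.24 CPM in Blimp1KO against 6.33 and 6.49 in its WT, and at 41.1 and 28.3 CPM in Xbp1KO against 1.44 and 2.08 in its WT. The WT libraries of the batches differed for Tsc22d1 (-1.87, adjusted p = 0.043), its Blimp1KO effect was not called (-1.02, adjusted p = 0.23), and the difference of effects was -5.33 (-6.49 to -4.18, adjusted p = 0.0094). Bcl2l1 encodes the anti-apoptotic protein BCL-XL. It stood at 3.50 and 4.23 CPM in Blimp1KO against 11.1 and 9.77 in its WT, and at 25.5 and 25.5 CPM in Xbp1KO against 9.03 and 11.3 in its WT. The 4 WT libraries thus lay together, with Blimp1KO below them and Xbp1KO above them. Bcl2l1 was called in both knockouts (-1.43, adjusted p = 0.032, and 1.32, adjusted p = 0.0082) and differed by -2.75 (-3.35 to -2.16, adjusted p = 0.0094).

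**Figure D2:**
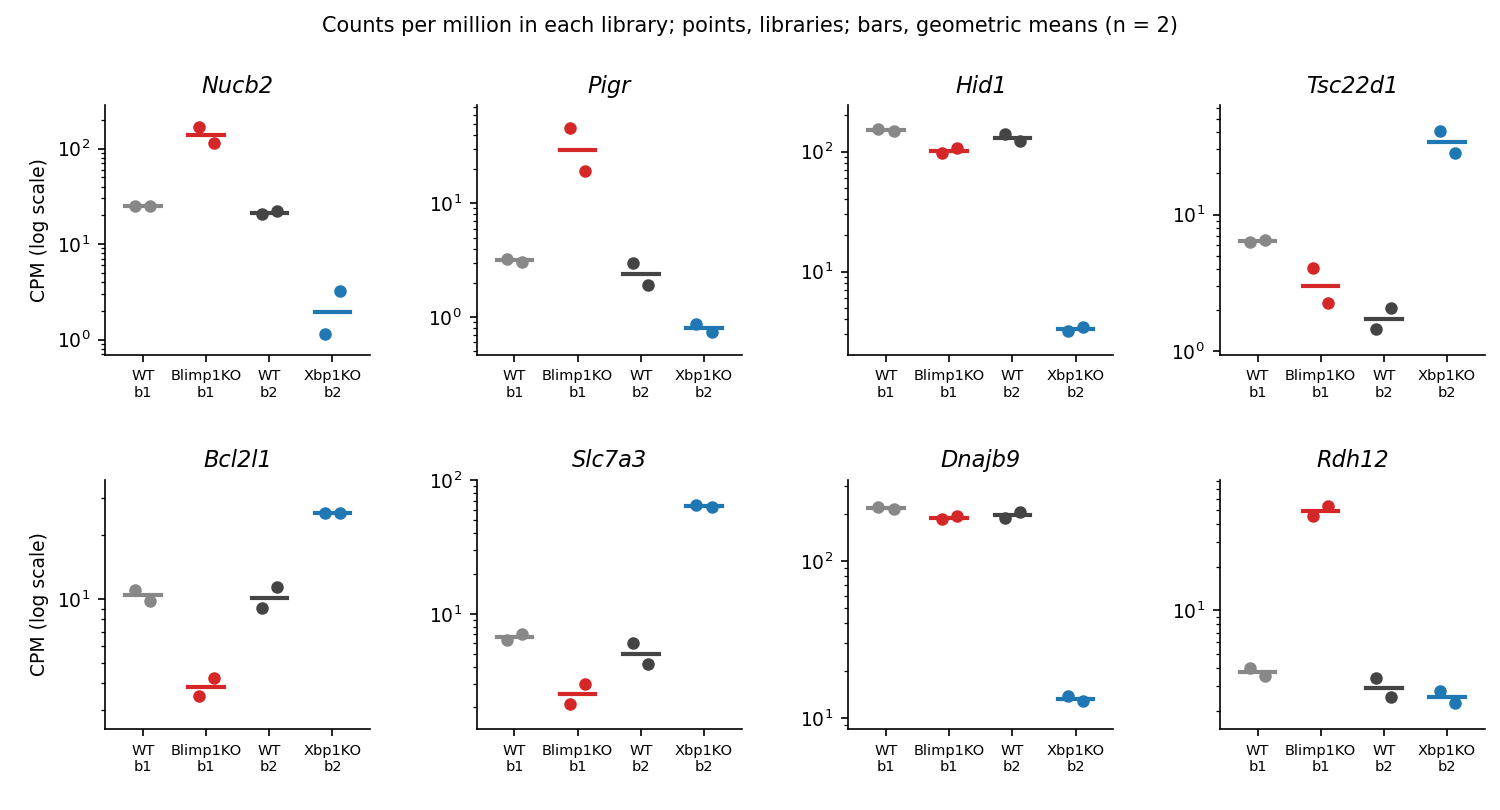
CPM on a log axis in each of the 8 libraries for 8 genes, by group (b1, batch 1; b2, batch 2), with points for libraries and bars for geometric means of 2 libraries. Nucb2 and Pigr are higher in Blimp1KO and lower in Xbp1KO, Tsc22d1, Bcl2l1 and Slc7a3 show the reverse, Hid1 and Dnajb9 are low in Xbp1KO and Rdh12 is high in Blimp1KO.

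Of the BCL2 family, 1 of 16 members tested passed, against 1.68% of all genes in either direction, which was Bcl2l1. Bcl2l1 was given with the comparison as a marker of it, so this count is not independent evidence on the family. Of 36 genes called in both knockouts, 25 had the same direction and 11 had opposite directions. Beside Bcl2l1, Btla and Napsa, the 11 were Alpl, Aspm, Hsd11b1, Cnpy3, Kctd14, Mob3b, BC061194 and a gene without a symbol. The members not named above were listed after their values were seen. Alpl, whose promoter is shown above, stood at 8.58 and 9.05 CPM in Blimp1KO against 28.6 and 25.2 in its WT, and at 58.6 and 58.0 CPM in Xbp1KO against 22.1 and 22.8 in its WT. These 4 pairs did not overlap between knockout and WT, and the difference was -2.99 (-3.43 to -2.54, adjusted p = 0.0029). Separation in Blimp1KO, where the effect was larger, was a condition of the rule that named Alpl. Kit, a receptor tyrosine kinase, Hsd11b1, which activates glucocorticoids, and Gsto1, a glutathione transferase, differed by -3.43, -3.36 and -2.91. Atp1b1, the sodium pump beta subunit, and Vegfa, the angiogenic growth factor, differed by -4.12 and -2.97. Of these 5 genes, Hsd11b1 was called in Blimp1KO and the others were not, while all 5 were called in Xbp1KO.

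All 25 genes of the mitosis and spindle list had a lower estimate in Blimp1KO and a higher estimate in Xbp1KO. The list medians were -0.91 and 1.34, beside -0.01 and 0.08 over all genes tested. The first was -0.14 without scaling factors and -0.57 without WT replicate 2. No member was called in Blimp1KO by edgeR and 10 were called in Xbp1KO. The difference was called in 5 of 25, against 0.511% of all genes: Bub1, Kif11, Top2a, Bub1b and Kif23, whose products build or check the spindle or untangle DNA. Kif23 was named after its values were seen. All gene lists here were chosen with earlier results known, so counts of members called are not independent evidence. Bub1, a spindle checkpoint kinase, stood at 1.27 and 1.44 CPM in Blimp1KO against 2.22 and 3.15 in its WT, and at 10.8 and 13.4 CPM in Xbp1KO against 2.48 and 2.49 in its WT. Its knockout and WT libraries did not overlap in either batch, though its Blimp1KO effect was not called (adjusted p = 0.15), and its difference was -3.27 (-4.14 to -2.40, adjusted p = 0.014). An unadjusted p below 0.05 was reached by 23 of the 25, and DESeq2 called 22. The 5 calls became 0 without any 1 of the 4 WT libraries, 2 without either Xbp1KO library, and 8 and 10 when Blimp1KO replicates 1 and 2 were dropped. The DNA replication list had medians of -0.30 and 0.94, with the Blimp1KO median at 0.48 without scaling factors, and 24 of 25 differences below 0. In it 2 of 25 were called, against 0.511% of all genes: Tk1, thymidine kinase, and Pole, a replicative polymerase subunit. Their differences were -1.40 (adjusted p = 0.029) and -2.30 (adjusted p = 0.033). At an unadjusted p below 0.05 there were 19, and DESeq2 called 9. Tk1 lay in no class, with a Blimp1KO effect of -0.46 and an Xbp1KO effect of 0.94.

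The mitotic shift was seen in both Xbp1KO libraries but was larger in the one with more counts of other marrow cells. The list's median deviation from WT was 1.04 in Xbp1KO replicate 1 and 1.70 in replicate 2, and -1.07 and -0.64 in the Blimp1KO libraries. Summed erythroid and megakaryocyte markers stood at 15.2 CPM in Xbp1KO replicate 1 and 1531 CPM in replicate 2, and at 48.1 and 484 CPM in WT of batch 2. Summed neutrophil and monocyte markers stood at 56.1 and 1708 CPM in the Xbp1KO libraries and at 45.7 and 731 CPM in their WT. In batch 1 the erythroid sums ranged from 51.8 to 253 CPM and the neutrophil sums from 365 to 624 CPM. With only the WT and Xbp1KO libraries of few such counts left in batch 2, the mitotic medians were -0.87 and 1.29. Summed B progenitor markers stood at 112 and 94.7 CPM in Blimp1KO against 167 and 204 in its WT, and at 149 and 232 CPM in Xbp1KO against 215 and 174 in its WT. Their median deviation from WT was 0.06 in Xbp1KO replicate 1 and 2.02 in replicate 2. As lists, erythroid markers had medians of -0.46 in Blimp1KO and 1.50 in Xbp1KO, with 16 of 16 differences below 0. Neutrophil markers had -0.58 and 1.31, with 21 of 24 below, and B progenitor markers -0.05 and 1.12, with 14 of 15. Their median differences ranged from -4.39 to 2.88, -7.21 to 6.59 and -1.64 to 0.18 over the 18 alternatives. That of mitosis ranged from -2.66 to -1.85. T and NK, dendritic and stroma markers had median differences of -0.09, -0.31 and -0.16. The part of other marrow cells in the difference was not tested. In bulk RNA, fewer cells of a type and less RNA per cell cannot be told apart.

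**Figure D3:**
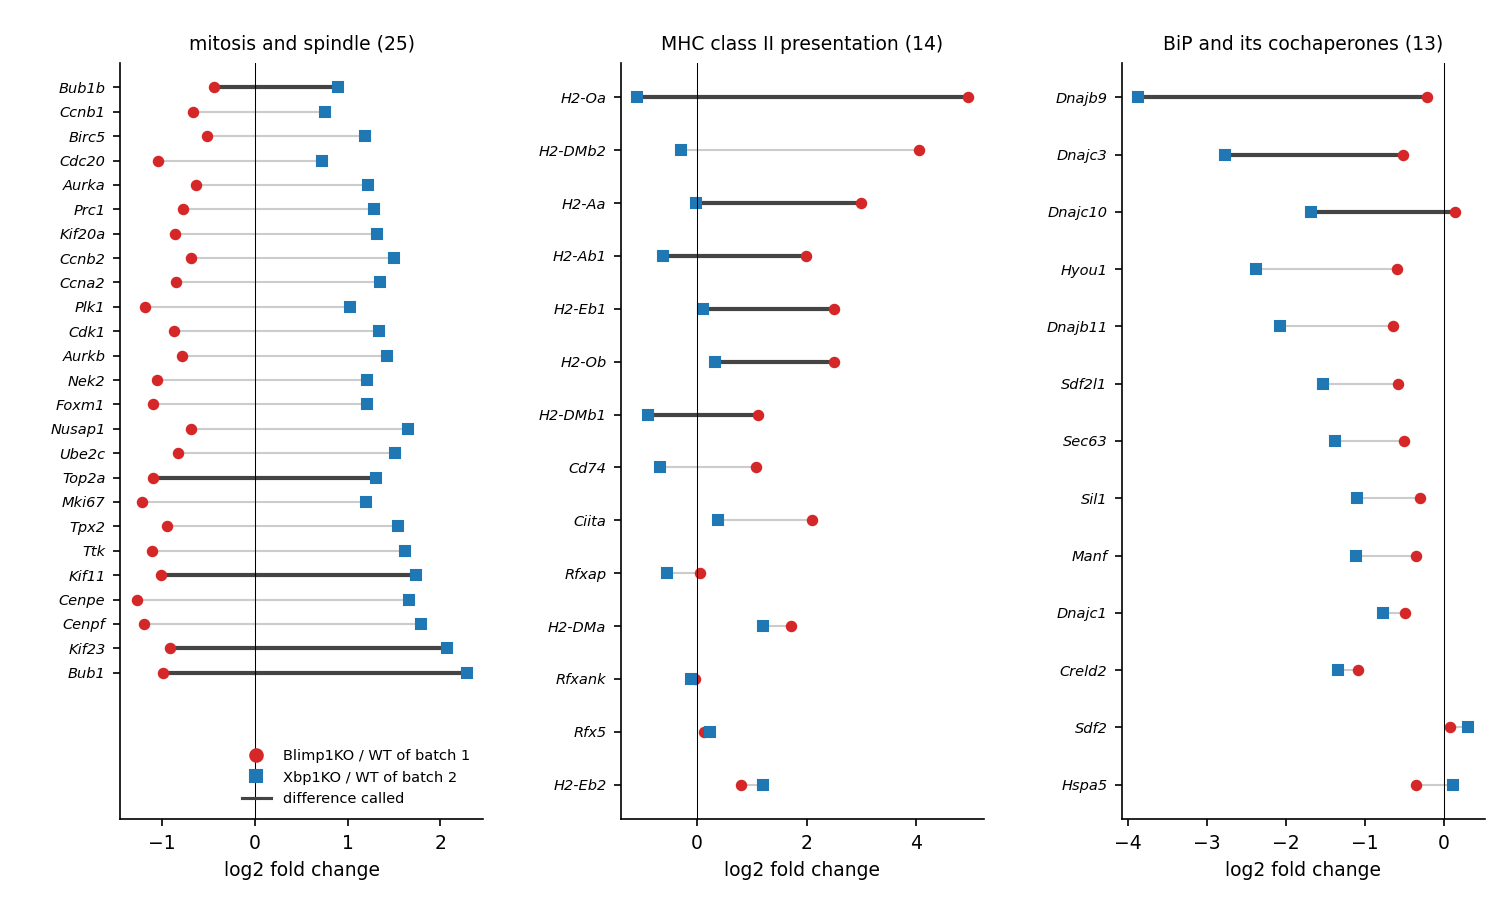
Log2 fold change of each tested member of 3 gene lists in Blimp1KO (circles) and Xbp1KO (squares), with a dark line where the difference was called. The 25 mitotic genes lie on opposite sides of 0, most class II genes have the higher estimate in Blimp1KO, and most BiP co-chaperones are lower in Xbp1KO.

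In the list of serine, folate, asparagine and proline synthesis, 2 of 14 members were called, against 0.511% of all genes. Psat1 and Psph, the enzymes of the last steps from glycolysis to serine, had effects of -1.09 and 1.50, and of -0.57 and 1.39, with neither called in Blimp1KO (adjusted p = 0.088 and 0.36). Psat1 stood at 14.5 and 21.9 CPM in Blimp1KO against 36.3 and 41.0 in its WT, and at 79.9 and 63.5 CPM in Xbp1KO against 26.1 and 24.7 in its WT. Its difference was -2.58 (-3.34 to -1.82, adjusted p = 0.021), and that of Psph was -1.96 (adjusted p = 0.046). The list had opposite estimates in 8 of 14 members and medians of -0.64 and 0.11, with the first at 0.15 without scaling factors. Pycr1, a proline synthesis enzyme named after its values were seen, instead fell in both knockouts (-1.27 and -0.94). In the amino acid transporter list 1 of 16 members was called, against 0.511% of all genes, which was Slc7a3, and 14 of 16 differences were below 0. Slc6a9, a glycine transporter, was at -1.02 and 0.11 and its difference was not called (-1.14, adjusted p = 0.070).

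The XBP1 side was made up mostly of genes that were lower in Xbp1KO. Of its 85 genes, 68 were lower and 17 higher in Xbp1KO, and all 85 were called in Xbp1KO while none was called in Blimp1KO. Dnajb9, a co-chaperone that binds BiP, the main ER chaperone, stood at 184 and 192 CPM in Blimp1KO against 220 and 215 in its WT, and at 13.9 and 12.8 CPM in Xbp1KO against 186 and 203 in its WT. Its level was more than an order of magnitude lower in Xbp1KO alone, with effects of -0.21 ± 0.16 and -3.87 ± 0.18 and a difference of 3.66 (3.11 to 4.21, adjusted p = 0.0029). Erp44, which retains unassembled antibody chains in the early secretory pathway, stood at 170 and 199 CPM in Blimp1KO against 220 and 216 in WT, and at 19.9 and 18.4 CPM in Xbp1KO against 164 and 153 in WT. Its difference was 2.81 (2.24 to 3.37, adjusted p = 0.0080).

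In 3 lists of folding factors, the members called by edgeR all had the Blimp1KO effect above the Xbp1KO effect, while DESeq2 also called 3 disulfide and 2 GRP94 and lectin chaperone members below. Of BiP and its co-chaperones, 3 of 13 members had a higher Blimp1KO effect, against 1.17% of all genes: Dnajb9, Dnajc3 and Dnajc10, an ER disulfide reductase, at a difference of 1.82 (adjusted p = 0.019). The list's medians were -0.49 in Blimp1KO (0.32 without scaling factors) and -1.38 in Xbp1KO. Dnajb11, another co-chaperone, was at -0.64 and -2.07, and its difference was not called (adjusted p = 0.056). Of disulfide isomerases and oxidases, 3 of 18 were called, against 1.17% of all genes: Erp44, Ero1lb at 2.10 (adjusted p = 0.014) and Pdia5 at 3.49 (adjusted p = 0.027). Pdia5 was of the opposite class, with effects of 1.34 (not called, adjusted p = 0.14) and -2.14. Hsp90b1, the gene of the chaperone GRP94, stood at 3398 and 2588 CPM in Blimp1KO against 4314 and 3925 in its WT, and at 17625 and 12418 CPM in Xbp1KO against 4774 and 4989 in its WT. Its difference was not called (-2.08, -3.19 to -0.98, adjusted p = 0.082), and those of Hspa5, the BiP gene, and Sdf2, named after their values were seen, were also below 0 and not called (-0.48 and -0.24). In the GRP94 and lectin chaperone list 2 of 15 were called, against 1.17% of all genes: Cnpy3, a GRP94 partner for Toll-like receptors, and Fkbp11, a prolyl isomerase.

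In vesicle transport between ER and Golgi 3 of 46 members passed, against 1.17% of all genes: Mcfd2, a cargo receptor partner, Kdelr3, whose promoter is shown above, and Bet1, a fusion protein, at differences of 1.28, 1.61 and 1.36. In the Golgi and granule list 4 of 22 passed, against the same 1.17%: Hid1, Nucb2, Pigr and Nucb1. Hid1, Nucb2 and Pigr were given with the comparison as markers of it. The list was chosen with earlier results known, so its count is not independent evidence on Golgi genes. Nucb1, nucleobindin 1, stood at 552 and 656 CPM in Blimp1KO against 823 and 812 in WT, and at 94.6 and 83.3 CPM in Xbp1KO against 581 and 529 in WT, with a difference of 2.20 (adjusted p = 0.025). Its Blimp1KO libraries lay below their WT, while those of its paralog Nucb2 lay above. Rpn1, a subunit of the enzyme that attaches N-glycans, was the 1 of 35 glycosylation genes called, also against 1.17% (2.16, adjusted p = 0.032). No member was called by edgeR among 24 genes of ER-associated degradation or 25 of ER translocation. At an unadjusted p below 0.05 there were 4 and 12, and DESeq2 called 3 and 8. Their medians were -0.42 and -0.36 in Blimp1KO and -0.57 and -1.01 in Xbp1KO, and all 4 lay above 0 without scaling factors. Sec61b, a channel subunit, was at -0.12 and -2.15 (difference 2.03, 1.11 to 2.94, adjusted p = 0.057).

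Further genes of the XBP1 side came from outside the secretory lists. Kcnk6, a potassium channel, stood at 33.2 and 23.5 CPM in Blimp1KO against 31.0 and 39.1 in WT, and at 1.67 and 2.57 CPM in Xbp1KO against 35.1 and 41.2 in WT, and its difference was 3.87 (2.96 to 4.78, adjusted p = 0.011). Arhgef10, a guanine nucleotide exchange factor, Serpini1, a serine protease inhibitor, and Hvcn1, the proton channel of B cells, differed by 3.33, 3.30 and 3.06. Fcrla, an intracellular Fc receptor relative, and Itgb2, the beta chain of the leukocyte integrins, differed by 3.42 (adjusted p = 0.014) and 3.05 (adjusted p = 0.048). Tapbp, the tapasin gene of class I peptide loading, differed by 2.12 (adjusted p = 0.039). It was the 1 of 18 class I genes called, against 1.17% of all genes, while DESeq2 called 4 above and 2 below. Atf6b, an ER stress sensor, differed by 1.31 (adjusted p = 0.044). It was the 1 of 14 stress sensors and factors called, against 1.17% of all genes, while DESeq2 called 3 above and 1 below. Eif2ak3, the gene of the sensor PERK, was at -0.02 and -1.45, with a difference of 1.43 (0.75 to 2.11) that was not called (adjusted p = 0.065).

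The 17 genes that were higher in Xbp1KO with little Blimp1KO effect included Dpp4, Cd36 and Sqle. Dpp4, a surface peptidase, stood at 11.3 and 7.24 CPM in Blimp1KO against 11.1 and 13.0 in WT, and at 67.3 and 59.6 CPM in Xbp1KO against 11.8 and 7.97 in WT. Only the Xbp1KO libraries stood above the rest, and the difference was -3.06 (-3.97 to -2.15, adjusted p = 0.022). Separation of Xbp1KO from its WT was a condition of the rule that named Dpp4. Cd36, a fatty acid and scavenger receptor, differed by -2.95 (adjusted p = 0.035). Sqle, an enzyme of cholesterol synthesis, differed by -1.83 (adjusted p = 0.039). The sterol list of 22 genes had medians of -0.14 and -0.14.

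The Blimp1 side held 17 genes that were higher and 7 that were lower in Blimp1KO, and 22 of its 24 genes were called in Blimp1KO. Rdh12, a retinol dehydrogenase, stood at 45.1 and 53.4 CPM in Blimp1KO against 3.97 and 3.49 in its WT, and at 2.77 and 2.28 CPM in Xbp1KO against 3.40 and 2.48 in its WT. Blimp1KO alone stood apart, and the effects of 3.72 ± 0.23 and -0.22 ± 0.21 differed by 3.95 (3.24 to 4.65, adjusted p = 0.0052). Separation of Blimp1KO from its WT was a condition of the rule that named Rdh12. Plac8, a small cysteine-rich protein of leukocytes, stood at 356 and 698 CPM in Blimp1KO against 38.3 and 47.5 in WT, and at 31.9 and 41.6 CPM in Xbp1KO against 37.5 and 28.3 in WT, a difference of 3.46 (adjusted p = 0.029). Dnase1l3, a secreted nuclease, Lsp1, an actin-binding protein of leukocytes, and Adamtsl4, a matrix protein, differed by 2.59, 2.13 and 1.51. Scd1, which makes monounsaturated fatty acids, and Gbp2, an interferon-induced GTPase, differed by 2.14 (adjusted p = 0.033) and 1.54 (adjusted p = 0.039). Of the genes lower in Blimp1KO, Chac1 stood at 5.20 and 6.03 CPM in Blimp1KO against 27.7 and 23.4 in WT, and at 16.6 and 10.6 CPM in Xbp1KO against 13.1 and 7.52 in WT, with a difference of -2.58 (-3.64 to -1.52, adjusted p = 0.044). It was the 1 of 19 ATF4 targets called, against 0.511% of all genes. At an unadjusted p below 0.05 there were 8, of which 7 lay below, and DESeq2 called 5, all below. Cpd, a carboxypeptidase of the Golgi, differed by -1.74 (adjusted p = 0.029).

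Of 14 class II antigen presentation genes tested, 13 had a higher estimate in Blimp1KO and 6 in Xbp1KO. Of the 14, 6 were called, against 1.17% of all genes, each with the Blimp1KO effect above the Xbp1KO effect. This list too was chosen with earlier results known, so the count is not independent evidence. The list medians were 1.85 in Blimp1KO and -0.06 in Xbp1KO. Dendritic cell markers had median deviations from WT of 0.69 and 0.22 in the Blimp1KO libraries, and their summed level was 396 and 398 CPM against 362 and 369 in WT. In Xbp1KO the deviations were -0.36 and 1.3, and the summed level was 388 and 356 CPM against 333 and 351. Their part in the class II difference was not tested. The 6 were H2-Aa, H2-Ab1 and H2-Eb1, chains of the peptide-presenting molecules, and H2-Oa, H2-Ob and H2-DMb1, chains of the peptide editors. H2-Eb1 and H2-DMb1 were named after their values were seen. H2-Aa stood at 2229 and 2815 CPM in Blimp1KO against 397 and 234 in its WT, and at 123 and 186 CPM in Xbp1KO against 157 and 156 in its WT. Its libraries overlapped between Xbp1KO and WT and did not overlap between Blimp1KO and WT, and the effects of 3.0 and -0.02 differed by 3.01 (1.87 to 4.16, adjusted p = 0.038). H2-Oa, with few counts outside Blimp1KO, had effects of 4.93 and -1.09 and a difference of 6.02 (3.84 to 8.20, adjusted p = 0.033). H2-Ab1 had effects of 1.98 and -0.62 and a difference of 2.61 (adjusted p = 0.033). H2-DMa, the partner chain of H2-DMb1, was instead called in both knockouts, at 1.72 and 1.20, and its difference of 0.52 (-0.17 to 1.21) was not called (adjusted p = 0.46). The list had 0 calls when any 1 of the 4 WT libraries or Xbp1KO replicate 1 was left out, 2 when Xbp1KO replicate 2 was, and 7 and 4 for Blimp1KO replicates 1 and 2, and it had 3 without scaling factors. Its median difference stayed between 1.50 and 2.31 in all 18 alternatives.

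In the list of B cell surface and receptor signalling genes, 3 of 33 members were called with the Blimp1KO effect above, against 1.17% of all genes, Ltb, Cd180 and Fcrla, and 1 below (0.511%). That gene was Cr2, a complement receptor, at -1.35 and 2.19 with a difference of -3.53 (adjusted p = 0.041). Its WT levels of 0.975 to 2.00 CPM were low. Spib, a transcription factor of B cells, stood at 157 and 197 CPM in Blimp1KO against 5.78 and 7.22 in WT, and at 7.88 and 29.0 CPM in Xbp1KO against 6.58 and 8.47 in WT. Its Xbp1KO libraries were far apart, and its difference of 3.48 (1.66 to 5.29) was not called (adjusted p = 0.078). None of 23 B cell stage transcription factors was called by edgeR, with 6 at an unadjusted p below 0.05 and 5 by DESeq2.

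**Figure D4:**
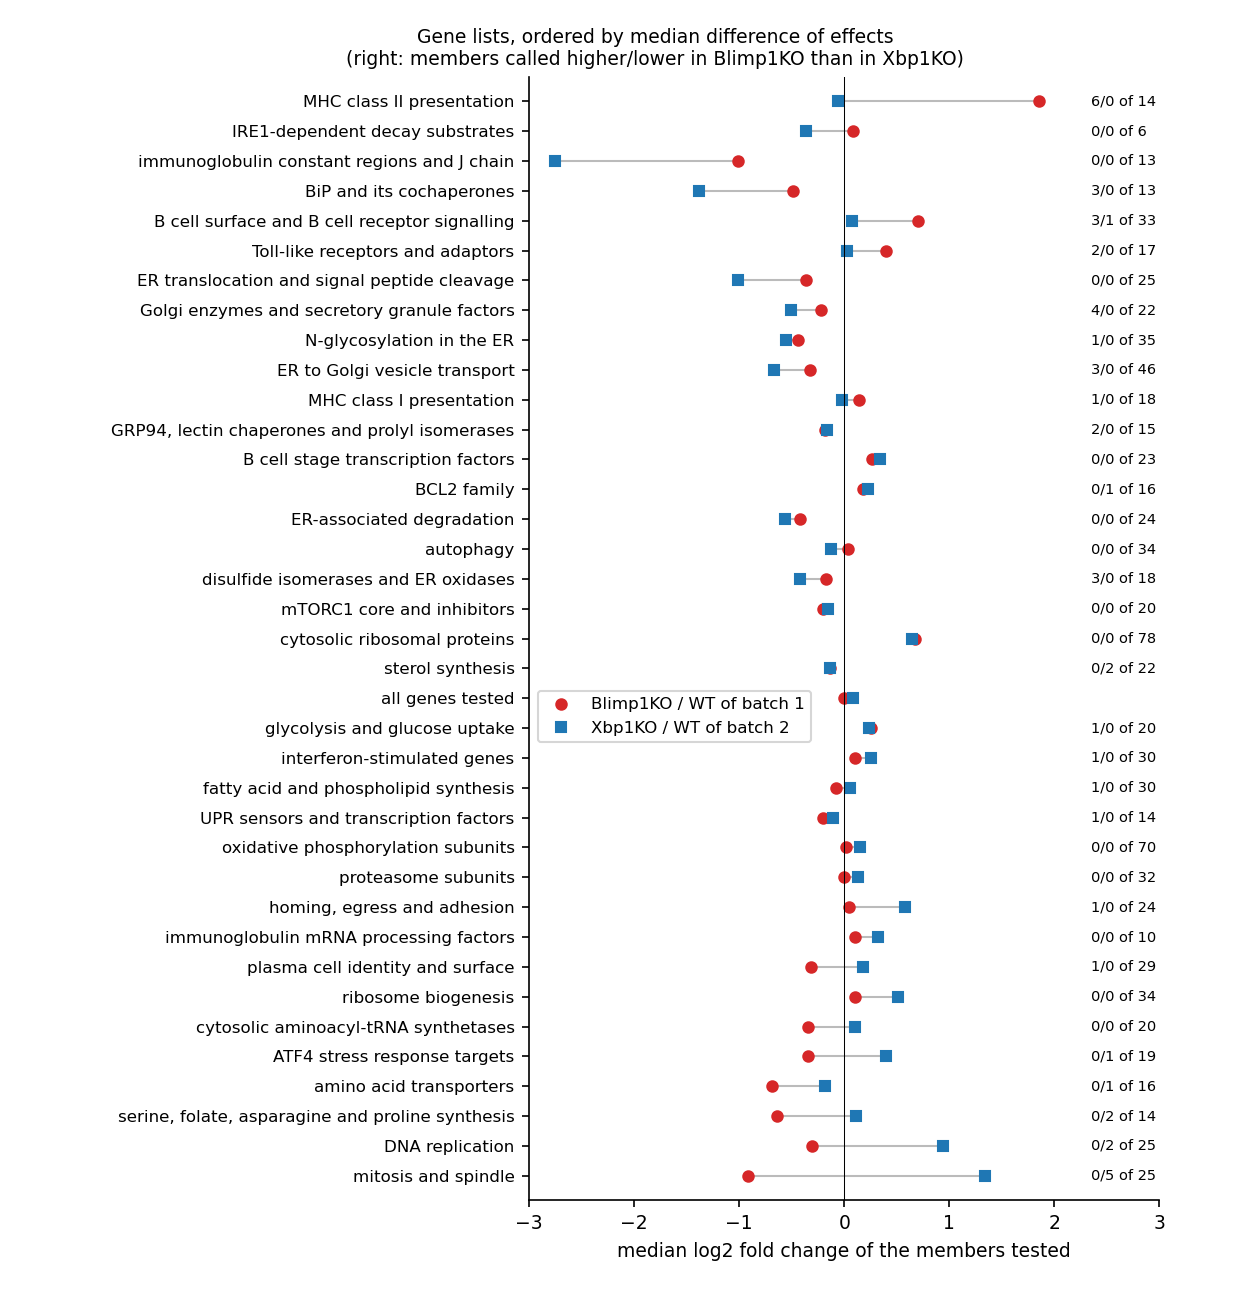
Median log2 fold change of the tested members of each gene list in Blimp1KO (circles) and Xbp1KO (squares), ordered by the median difference. The number of members called higher and lower is at the right, and the lists of marrow cell markers are left out. Among the lists shown, class II presentation stands at the top with 6 of 14 and mitosis at the bottom with 5 of 25. The erythroid and neutrophil marker lists, not shown, had median differences of -2.09 and -1.91, beside -2.26 for mitosis.

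Genes with a lower estimate in both knockouts, and the lower one in Xbp1KO, formed most of the class of same direction and unequal size. Of its 33 genes, 31 had lower and 2 higher estimates in both, 2 were called in Blimp1KO and 31 in Xbp1KO, and 11 were immunoglobulin segments. Hid1, needed for sorting into secretory granules at the trans-Golgi, stood at 97.2 and 106 CPM in Blimp1KO against 154 and 148 in its WT, and at 3.19 and 3.47 CPM in Xbp1KO against 139 and 123 in its WT. Both knockouts lay below their WT, with effects of -0.57 ± 0.16 (not called, adjusted p = 0.17) and -5.30 ± 0.19, and the difference was 4.73 (4.18 to 5.28, adjusted p = 0.0026). Bhlha15, the transcription factor MIST1 of secretory cells, stood at 93.1 and 92.0 CPM in Blimp1KO against 162 and 171 in WT, and at 14.1 and 13.6 CPM in Xbp1KO against 157 and 148 in WT. Its effects of -0.84 and -3.46 differed by 2.62 (2.12 to 3.12, adjusted p = 0.0067). Atat1, a tubulin acetyltransferase, Dnajc3, whose promoter is shown above, Fkbp11 and Rab3d, a GTPase of secretory granules, differed by 3.20, 2.27, 2.79 and 1.62. Gimap3, a GTPase of lymphocytes, had higher estimates in both, at 2.99 and 0.69 (the latter not called, adjusted p = 0.051), with a difference of 2.30 (adjusted p = 0.012). Among 13 immunoglobulin constant regions and J chain, none was called by edgeR, 6 had an unadjusted p below 0.05 and DESeq2 called 7. Their medians were -1.01 and -2.76.

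The 25 genes moved by both comprised 11 higher and 14 lower. In single knockouts 0.577% and 0.285% of genes were called higher and lower in Blimp1KO, and 2.63% and 5.06% in Xbp1KO. For 12 of the 25, the 95% interval of the difference lay within 1 on either side of 0, so a difference above 2-fold was outside it. Lynx1, a membrane-anchored modulator of acetylcholine receptors, stood at 28.8 and 30.6 CPM in Blimp1KO against 12.7 and 13.7 in its WT, and at 26.1 and 25.9 CPM in Xbp1KO against 12.1 and 11.8 in its WT. Its effects of 1.17 and 1.12 differed by 0.05 (-0.37 to 0.46). Siglecg, an inhibitory receptor of B cells, Gas5, a small nucleolar RNA host, Vim, the vimentin gene, Sp110, a nuclear body protein, and Arhgap4, a GTPase-activating protein, also rose in both. Their differences were 0.01, 0.08, 0.22, -0.13 and 0.40. Cd40, a costimulatory receptor, and S1pr1, the receptor for egress from tissue, were named after their values were seen and rose by 1.71 and 1.51 and by 2.75 and 1.89.

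Thbd, the thrombomodulin gene, stood at 13.8 and 16.7 CPM in Blimp1KO against 60.1 and 44.9 in WT, and at 20.8 and 16.3 CPM in Xbp1KO against 55.3 and 63.4 in WT. Its level was lower in every knockout library than in any WT library, and the difference of effects was -0.11 (-0.80 to 0.59). Separation from WT in the knockout with the larger effect was a condition of the rule that named Thbd. Sema6d, a semaphorin, Cdk16, a cyclin-dependent kinase, Nuggc, a nuclear GTPase of germinal centre B cells, Clec2g, a lectin-like receptor, and Slc17a5, the lysosomal exporter of sialic acid, also fell in both. Their differences were 0.10, 0.04, -0.05, 0.47 and 0.73. Xbp1 itself was lower by estimate in both, at -0.98 ± 0.25 (adjusted p = 0.14) and -0.85 ± 0.25 (adjusted p = 0.094). Prdm1 was at -0.54 and 0.63, and its difference of -1.17 (-1.99 to -0.35) was not called (adjusted p = 0.16).

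**Figure D5:**
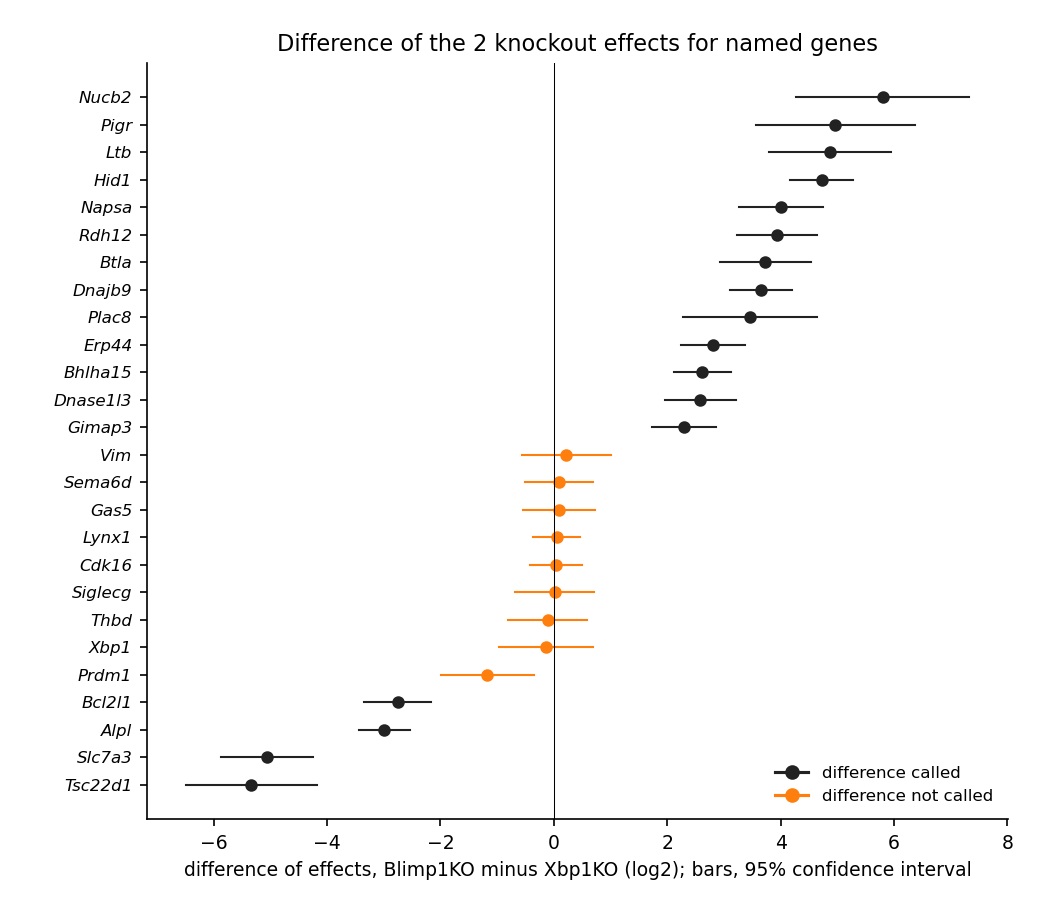
Difference of effects, Blimp1KO minus Xbp1KO on the log2 scale, with its 95% confidence interval for 26 genes named in the text. Genes called for the difference (dark) lie from -5.33 to 5.80, and those not called (orange) have intervals that include 0, apart from Prdm1.

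Cytosolic ribosomal protein genes had equal medians in the comparison, at 0.67 in Blimp1KO and 0.64 in Xbp1KO. No member of 78 was called for the difference by edgeR or DESeq2, and none had an unadjusted p below 0.05. The Blimp1KO libraries disagreed on this list, with median deviations from WT of 0.13 in replicate 1 and 1.07 in replicate 2, and the median difference was 0.50 without replicate 1 and -0.50 without replicate 2. Oxidative phosphorylation and proteasome subunits had no call among 70 and 32 members, with 0 and 1 at an unadjusted p below 0.05 and none by DESeq2. On these lists too the Blimp1KO libraries disagreed. Median deviations from WT in replicates 1 and 2 were -0.41 and 0.39 for oxidative phosphorylation and -0.24 and 0.24 for the proteasome.

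Promoter sequences of 11079 genes tested were searched in windows of 250 bases before to 50 after the start, on both strands. The unfolded protein response element core was in 5 of 83 promoters of the XBP1 side (6.02%) and in 0.821% of all 14010 promoters. Its holders there were Kdelr3, Kcnab2, Morn2, Slc30a5 and Ncstn, of which Ncstn was higher in Xbp1KO, all named after their values were seen. The ER stress response element was in 1 of 83 (1.2%) against 0.128%. The Blimp1 site core was in 3 of 25 promoters of the Blimp1 side (12%), 8 of 103 of the opposite class (7.77%) and 7.79% of all promoters. The amino acid response element was in 3 of 25 promoters of the Blimp1 side, those of Chac1, H2-Ob and Trim34a, and in 2.51% of all. These are counts of letters in a window and no record of binding.

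Whether reads were counted by strand is not given in the sources used here. Of 99 genes named here 98 were matched to GENCODE, and 23 shared exon bases with a gene on the opposite strand and 4 with one on the same strand. Hvcn1 shared 44.2% of its exon bases with Tctn1, Arhgap4 29.0% with Avpr2, Slc6a9 27.8% with Ccdc24 and Tapbp 24.9% with Gm19412. H2-Oa shared 22.8% with BC051537, Napsa 18.9% with Gm15396 and Atp1b1 18.7% with Nme7. For these genes the level is uncertain by an amount that was not tested, since a share of bases is not a share of reads. The partners Tctn1, Avpr2, Gm19412 and Nme7 had an average log2 CPM of 2.06, -3.16, -2.09 and 2.89. Hvcn1, Arhgap4 and Atp1b1 stood at 7.26, 4.15 and 6.57. The other partners were not in the fit.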

How the data were processed

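RNA of sorted bone marrow plasma cells was sequenced in 8 libraries, 2 per knockout and 2 WT per batch. The authors deposited unnormalized counts of reads, 1 row per Entrez gene, and the submitters' processing notes name Subread, featureCounts and limma and the builds GRCm38 and mm10 without versions. The authors also deposited log2 FPKM per library, with an offset and filter not given in the sources used here. In batch 1 these matched the counts of the other replicate number, which leaves the groups as they are.

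Counts were fitted with edgeR 4.0.16 in R 4.3.3 (filterByExpr with a minimum count of 10, TMM scaling, 4 group means, quasi-likelihood test), and p-values were adjusted by Benjamini-Hochberg over 15073 genes, with a threshold of 0.05. Intervals of 95% use the total degrees of freedom (4 residual). CPM are per scaled library. Genes named are Prdm1, Xbp1, Sdc1, the 5 markers and genes picked by rule. The rule took the 10 highest and 10 lowest differences, up to 6 genes per class by p and up to 4 per list by p. Immunoglobulin segments and predicted genes were left out. Picks by difference and by class also needed a mean log2 CPM no lower than 3. In these picks the knockout with the larger effect had to be free of overlap with its WT. Their separation in that knockout is therefore a condition of naming and not a finding. A gene from outside this rule is described as named after its values were seen. The members and the gene lists were chosen with earlier results of these data known, so counts of members called are not independent evidence. Alternatives used DESeq2 1.42.0 and limma 3.58.1. Simulated counts of this design covered 14647 genes, with 50 changed at each size, drawn at an average log2 CPM of at least 1. The fit recovered 2%, 38%, 84% and 88% of those whose log2 difference was 1, 2, 3 and 4. It also called 9 of 14447 unchanged genes. Counts followed the fitted spread without a varying content of other marrow cells, so these shares need not hold for the real libraries. Replicates are called biological in the series text.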

Additional observations from a re-analysis of the deposited data

How the results depend on the processing

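All called differences that an alternative could test kept their direction in all 18 alternatives (253 of 253, or 240 of 240 where fewer genes were tested), while their number depended on the setting. The alternatives reuse the libraries in which these genes were selected, so the kept direction is not independent evidence. Without scaling factors 93 were called above and 141 below, with 55 opposite and 5159 moved by both. With immunoglobulin genes removed before scaling the Blimp1 side held 39. In the order above, below, XBP1 side, Blimp1 side, opposite, same direction and moved by both, the counts were 496, 267, 221, 84, 291, 122 and 111 without the filter, 732, 411, 323, 121, 346, 143 and 196 by DESeq2, 25, 9, 10, 0, 20, 4 and 0 by limma on the deposited log2 FPKM, and 368, 171, 182, 61, 193, 64 and 0 with each batch fitted alone. By limma-voom 16 were moved by both. Leaving out 1 library at a time gave 1 to 371, 2 to 227, 0 to 139, 0 to 161, 2 to 203, 1 to 49 and 0 to 138. Without both WT replicate 4 and Xbp1KO replicate 2, chosen after seeing the data, the counts were 1, 1, 1, 0, 1, 0 and 0. An arm left with 1 library is assumed to vary like the others. The causes of these changes were not tested, beyond the fewer libraries or genes that a setting itself leaves.

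Replicate numbers are shared only in batch 1, where same-numbered deviations correlated at 0.22 over 2 pairs. So few pairs cannot decide whether same-numbered samples share a preparation, and the main fit did not pair them. With a replicate block 178 differences were called, 123 above and 55 below, the Blimp1 side held 11, and the class II list had 1 call in place of 6.

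Only genes whose difference was near 0 and not called changed sign among the 99 named. Without scaling factors Lynx1 was at -0.32, Siglecg -0.36, Gas5 -0.27, Vim -0.15, Sema6d -0.26, Cdk16 -0.32 and Cd40 -0.15. Nuggc was at 0.0295 with immunoglobulin removed and 0.0170 with each batch alone, and Gas5 at -0.10 without WT replicate 4 and Xbp1KO replicate 2. With 1 library left out, Cd40 ranged from -0.0733 to 0.71, Cdk16 from -0.0438 to 0.24, Gas5 from -0.14 to 0.35, Nuggc from -0.24 to 0.33, Sema6d from -0.0629 to 0.29, Siglecg from -0.18 to 0.32, Sp110 from -0.32 to 0.10, Thbd from -0.29 to 0.20, Vim from -0.0691 to 0.54, Xbp1 from -0.28 to 0.11. Of 74 called genes named, 3 to 69 stayed called when 1 library was left out.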
